A study of Mus musculus with 5 samples.

Results

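The GABA-A receptor subunit genes *Gabra2*, *Gabra3*, *Gabra4*, *Gabra5*, *Gabrb1*, *Gabrb2*, and *Gabrd* were followed in labeled neurons of the mouse primary somatosensory cortex (S1). These 7 genes are a named set out of 19938 genes that had a probe set annotated with a single symbol. They were chosen with earlier results of these data known, so shares of all genes beside them are a description. The probe set with the highest mean stood for each gene. In each case some array was at or above its own median, so all 7 were among the 12632 genes compared. In association neurons 4 of them were at least 2-fold lower in L5 than in L2/3 and 0 were higher, where 7.36% of all genes compared were lower and 3.48% higher. *Gabra4*, *Gabra2*, and *Gabrb2* were 8.17-fold, 5.50-fold, and 2.81-fold lower, for *Gabrb2* in 1 of 3 probe sets. *Gabrb1* was at least 4.99-fold lower, a bound taken against the array median because its L5 signal lay below it. In L6b association neurons *Gabra5* was higher than in any other array, though less than 2-fold above callosal L5. There *Gabra4* and *Gabrb1* were at the low level of association L5.

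The arrays were GeneChip Mouse Gene 1.0 ST arrays, 1 for each of 5 groups, which were association neurons of L6b, L5, and L2/3 and callosal neurons of L5 and L2/3. Association neurons were S1 cells labeled from the motor cortex M1 of the same hemisphere, and callosal neurons were S1 cells labeled from the S1 of the opposite hemisphere. All mice were wild-type ICR, were injected with Green RetroBeads into one of these targets, and were collected 3 days later, at postnatal day 24. Mice of all groups had a tdTomato plasmid electroporated *in utero* into their L2/3 neurons, which guided the injections, and about 1000 bead-bearing cells per group were cut out by laser microdissection. The RNA was amplified before hybridization. The sources used here do not give the number or the sex of the mice behind an array. A bead shows that the axon reached the injected site but does not show that it went nowhere else, and a cut around a cell body can take parts of neighboring cells.

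GABA-A receptors are the chloride channels that carry most fast inhibition in the cortex. Each is a ring of subunits around a pore, usually built of α and β subunits together with a γ or a δ subunit. GABA binds between β and α, and the α subunit next to γ sets the response to benzodiazepines. Some receptors gather at synapses, whereas those with α4 and δ or with α5 lie largely outside them and carry a tonic current.

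With 1 array per group there was no replicate spread, so no test could be made and no p-value is given. Neighbors in any order of arrays could therefore not be told apart from their spread. Signals are log2 values minus the median of the array over all probe sets, a difference of 1 is 2-fold, and the counts of higher and lower genes take differences of at least 2-fold. Signals of different genes come from different probes and were not set against each other. The table gives no detection limit, so for signals below the array median folds are given as bounds against that median. In such bulk samples, fewer cells of a type and less RNA per cell cannot be told apart. The deposited values had 2 decimals. Of the 35556 probe sets, 60.6% had the same value in at least 2 of the 5 arrays, and 14.8% in at least 4. The cause of these ties was not tested.

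The labels were checked against known markers, a few of which are shown here and were chosen after their values were seen. *Cplx3*, a complexin marking L6b and subplate cells, had a signal of 5.22 in association L6b against -0.37 to 0.39 in the other 4 arrays. *Calb1*, a calcium buffer of upper layer neurons, was at -1.62 in L6b, 2.42 in L5, and 5.82 in L2/3 of association neurons, and 3.15 in L5 and 5.55 in L2/3 of callosal neurons. *Slc17a7*, the vesicular glutamate transporter of cortical projection neurons, was between 3.84 and 4.47 in all 5 arrays. Of 11 glutamatergic markers, 4 were at least 2-fold lower in L6b than the mean of the other 4 arrays and 0 higher. Over all genes compared these shares were 6.55% and 2.44%. Among the lower was *Nrgn*, encoding neurogranin, at 1.82 in association L6b against 3.60 to 3.86 elsewhere. The rest did not reach 2-fold, and *Neurod6* was at 0.56 in this comparison. The L5 markers were mixed. *Fezf2*, a transcription factor of deep layer neurons, was at 0.32 in L6b, 1.39 in L5, and -0.20 in L2/3 of association neurons, and 2.04 in L5 and -0.34 in L2/3 of callosal neurons. *Etv1*, a marker of L5 neurons, had 2 probe sets. In the one used it was higher in association L2/3, at 2.75, than in association L5, at 1.65. In the other the order was reversed, at 1.92 in association L2/3 and 2.15 in association L5. *Rbp4*, another L5 marker, was lower in callosal L5, at 1.12, than in callosal L2/3, at 2.20. Markers of other cells were present too. *Pvalb*, which marks a class of GABAergic interneurons, was at -1.38 in L6b, 4.41 in L5, and 4.57 in L2/3 of association neurons, and 4.52 in L5 and 2.26 in L2/3 of callosal neurons. Pairs of arrays correlated across probe sets with Pearson's r of 0.918 to 0.938, and probe sets are not independent replicates.

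The subunit genes lie in clusters, and the order of the genes was taken from the RefSeq annotation of GRCm38.p6. On chromosome 5 the order was *Gabrg1*, *Gabra2*, *Cox7b2*, *Gabra4*, and *Gabrb1*. On chromosome 7 *Gabra5* stood next to *Gabrg3*, and *Gabrb2* and *Gabra6* lay near each other on chromosome 11. *Gabra3* lay on chromosome X between *Magea10* and *Gabrq*, with *Gabre* next to *Magea10*, and *Gabrd* lay on chromosome 4 with no other subunit gene among its nearest coding neighbors. *Gabra4* and *Gabrb1* are read from opposite strands, and their first annotated starts are 387 bases apart in such a way that the genes overlap there. Where the probes lie relative to this overlap was not analysed here.

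Promoter windows from RefSeq were found for 6 of the 7 genes, with 10 annotated starts among them. Windows of 4 starts are shown, each as the 250 bases before a start on the strand of the gene in GRCm38.p6, because they belong to the 3 chromosome 5 genes with the largest layer difference and to the gene that was highest in L6b. Capitals mark the letters of the GC box (GGGCGG) and the CCAAT box (CCAAT), on either strand.
Gabra2, chr5:71095850-71096099, minus strand: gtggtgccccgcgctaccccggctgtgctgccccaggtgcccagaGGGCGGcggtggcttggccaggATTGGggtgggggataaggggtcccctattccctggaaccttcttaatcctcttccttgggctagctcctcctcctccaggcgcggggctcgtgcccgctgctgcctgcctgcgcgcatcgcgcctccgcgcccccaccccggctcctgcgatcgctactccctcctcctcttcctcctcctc
Gabra4, chr5:71658309-71658558, minus strand: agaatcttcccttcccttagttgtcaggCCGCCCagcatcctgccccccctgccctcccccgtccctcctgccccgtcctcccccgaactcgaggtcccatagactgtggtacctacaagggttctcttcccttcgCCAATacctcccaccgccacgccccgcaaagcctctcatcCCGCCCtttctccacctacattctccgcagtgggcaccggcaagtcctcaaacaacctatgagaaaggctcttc
Gabrb1, second annotated start, chr5:71699682-71699931, plus strand: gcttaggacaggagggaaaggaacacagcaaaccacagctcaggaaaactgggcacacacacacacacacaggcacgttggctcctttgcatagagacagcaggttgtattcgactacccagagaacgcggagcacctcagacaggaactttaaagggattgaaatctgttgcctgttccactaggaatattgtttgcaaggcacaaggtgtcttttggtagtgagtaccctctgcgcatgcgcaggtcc
Gabra5, chr7:57510060-57510309, minus strand: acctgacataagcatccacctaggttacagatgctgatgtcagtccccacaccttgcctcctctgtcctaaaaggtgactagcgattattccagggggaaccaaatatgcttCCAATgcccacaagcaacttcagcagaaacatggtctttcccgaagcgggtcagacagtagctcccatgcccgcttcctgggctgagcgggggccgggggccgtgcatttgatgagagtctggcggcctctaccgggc

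For *Gabrb1* the second start is shown because the window of the first lies inside *Gabra4*. *Gabra2* had 70.0% GC with 1 GC box and 1 CCAAT box, and *Gabra4* had 61.2% GC with 2 GC boxes and 1 CCAAT box. The window before the second start of *Gabrb1*, which lies 41624 bases from the start of *Gabra4*, had 50.8% GC and none of the searched motifs, and the window of the first start, which is not printed, had 64.4% GC and also none. *Gabra5* had 56.4% GC and 1 CCAAT box. Over all 32851 mouse windows the median GC content was 52.4%, 32.7% held a GC box, and 33.8% held a CCAAT box. A TATA box (TATAAA, 12.4% of all windows) was in 3 of the 10 windows of these genes, of which the 2 of *Gabra3* overlap and hold the same match, a CRE half-site (TGACG, 17.8%) in 0, and the Egr motif (GCGNGGGCG, 4.7%, which can overlap a GC box) in 1. Such matches of letters are a description and say nothing about the binding of a factor.

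**Figure D1:**
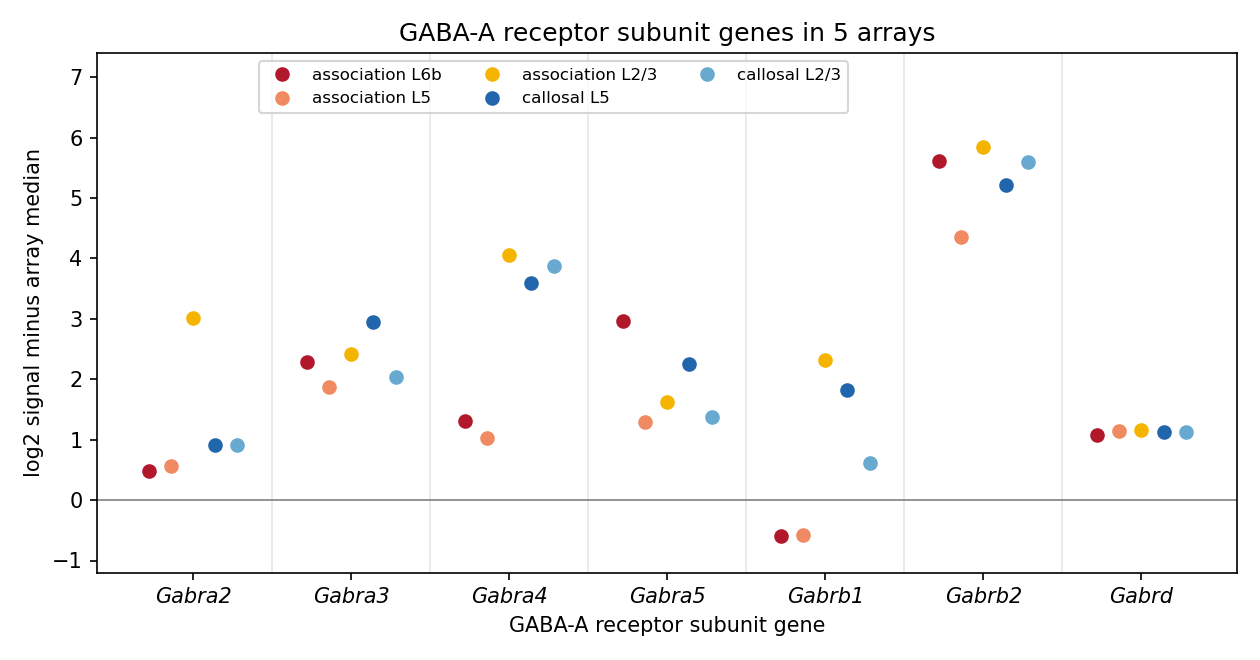
Signal of the 7 GABA-A receptor subunit genes in the 5 arrays, with the gene on the x axis and log2 signal minus the array median on the y axis; each point is 1 array. *Gabra4* and *Gabrb1* are low in association L6b and L5, *Gabra2* stands out in association L2/3 only, *Gabra5* is highest in association L6b, and *Gabrd* is level.

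Among the α subunits, *Gabra4* varied most. It encodes α4, the partner of δ in extrasynaptic receptors of the forebrain that benzodiazepines do not bind. Its signal was 1.31 in L6b, 1.03 in L5, and 4.06 in L2/3 of association neurons, and 3.60 in L5 and 3.87 in L2/3 of callosal neurons. The 2 deep association arrays were thus more than 2-fold below the other 3, and callosal L5 was with the L2/3 arrays. Association L5 minus association L2/3 was -3.03 and association L5 minus callosal L5 was -2.57, a 5.94-fold lower signal in association neurons of the same layer. In L2/3 association and callosal neurons differed by 0.19.

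*Gabra2* encodes α2, an α subunit of synaptic receptors that is concentrated at the axon initial segment of pyramidal neurons. Its signal was 0.48 in L6b, 0.56 in L5, and 3.02 in L2/3 of association neurons, and 0.92 in both callosal arrays, where the deposited value was 6.66 in each. Only association L2/3 was high, 2.10 above the next array. Among the 7 genes, *Gabra2* was the only one that was at least 2-fold apart in 1 array from each other array. Over all 12632 genes, 2.49% were apart in this way in association L2/3, 4.08% in association L6b, 2.14% in association L5, 1.66% in callosal L5, and 2.12% in callosal L2/3.

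*Gabra5* and *Gabra3* had smaller ranges and other orders. *Gabra5* encodes α5, known for extrasynaptic receptors and tonic inhibition in the hippocampus and the deep cortical layers. Its signal was 2.97 in L6b, 1.29 in L5, and 1.62 in L2/3 of association neurons, and 2.25 in L5 and 1.37 in L2/3 of callosal neurons. Association L6b was the highest array, 0.72 above callosal L5 and 3.20-fold above association L5. *Gabra3* encodes α3, which is prominent in the young cortex and in its deep layers. Its signal was 2.29 in L6b, 1.88 in L5, and 2.41 in L2/3 of association neurons, and 2.95 in L5 and 2.03 in L2/3 of callosal neurons. Callosal L5 was highest and association L5 lowest, a span of 1.07.

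Of the β subunits, which hold part of the GABA site and carry the phosphorylation sites that set receptor number at the surface, *Gabrb1* followed its neighbor *Gabra4* in the association arrays. The signal of *Gabrb1* was -0.59 in L6b, -0.58 in L5, and 2.32 in L2/3 of association neurons, and 1.82 in L5 and 0.62 in L2/3 of callosal neurons. The 2 deep association arrays were below the median of all probe sets and the other 3 were above it. *Gabrb1* was also 2-fold apart between the callosal arrays, by 1.20 with L5 above L2/3, where *Gabra4* was at -0.27. The projection contrast therefore had opposite signs in the 2 layers, with association below callosal by at least 3.53-fold in L5, a bound against the array median, and above it by 3.25-fold in L2/3.

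*Gabrb2*, encoding the β2 subunit, which is abundant in the adult brain, had 3 probe sets. In the one used, the signal was 5.61 in L6b, 4.35 in L5, and 5.84 in L2/3 of association neurons, and 5.21 in L5 and 5.59 in L2/3 of callosal neurons. Association L5 was the lowest array in this and in both other probe sets. The size of the difference depended on the probe set: association L5 minus association L2/3 was -1.49 in the one used and -0.61 and -0.77 in the others, so that 1 of 3 passed 2-fold. Association L6b minus association L5 was 1.26, 0.31, and 0.75. In L2/3, association minus callosal was 0.25, -0.58, and -0.19, and its direction was not shared. Callosal L5 minus callosal L2/3 was -0.38 in the one used and -1.02 and -0.47 in the others.

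*Gabrd*, encoding the δ subunit of extrasynaptic receptors, was level. The deposited value was 6.87 in 4 arrays and 6.92 in association L5, and after the medians were subtracted the signal ranged from 1.07 to 1.16. Values tied in this way carry no order. *Gabra4*, whose product pairs with δ, spanned 3.03 over the same arrays.

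Taking the 5 arrays as a whole, 6 of the 7 genes spanned at least 2-fold from lowest to highest, against 29.3% of all genes compared. The median range was 1.68 for the 7 genes and 0.53 for all genes. Association L2/3 was the highest array for *Gabra2*, *Gabra4*, and *Gabrb1*, and in the probe set used for *Gabrb2*, whose other probe sets were highest in callosal L2/3, and association L5 was the lowest for *Gabra3*, *Gabra4*, *Gabra5*, and *Gabrb2*. Among all genes compared, 295 were at least 2-fold higher in association L2/3 than in each other array and 20 at least 2-fold lower. For association L5 these were 166 and 104. The shares of all genes highest or lowest in these arrays by any amount were not counted. The comparisons below share arrays, so they are not independent of each other.

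Comparing L5 with L2/3 within association neurons, 4 of the 7 genes were at least 2-fold lower in L5 and 0 higher. Over all genes 7.36% were lower and 3.48% higher in this comparison. The median of the 7 was -1.49 and that of all genes -0.06. Among 12632 genes counted from the most negative difference, *Gabra4* was at rank 34, *Gabrb1*, by its measured signal, at 43, *Gabra2* at 92, and *Gabrb2* at 443. *Gabra3* at -0.53 and *Gabra5* at -0.33 did not reach 2-fold, and *Gabrd* was at -0.01. The 2-fold lower *Gabrb2* signal is that of 1 of its 3 probe sets.

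**Figure D2:**
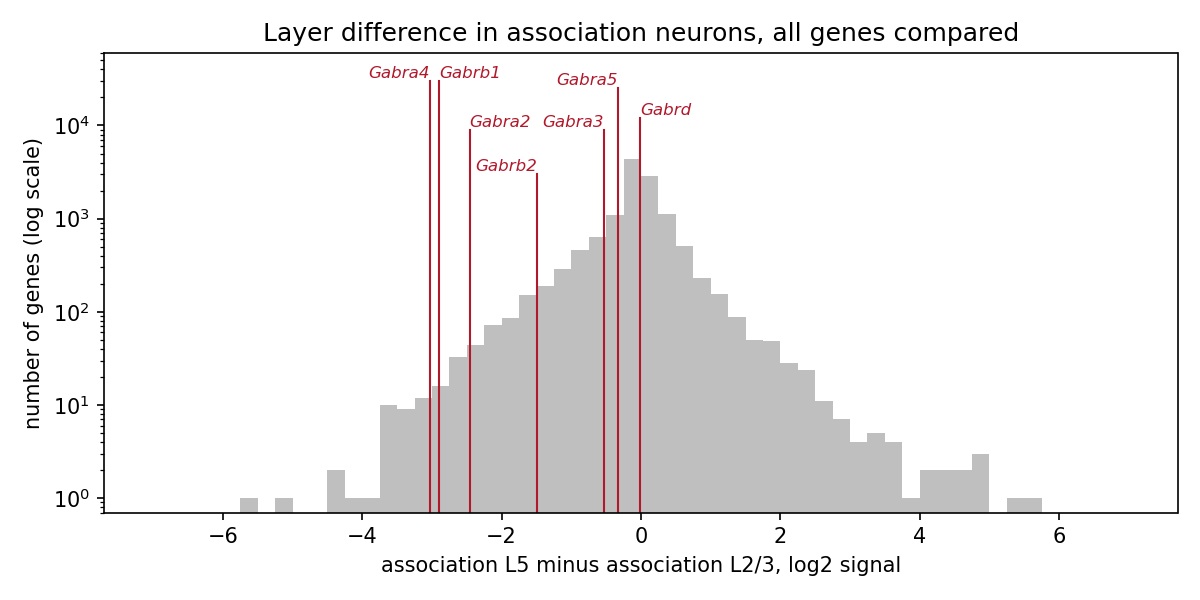
Histogram of the difference association L5 minus association L2/3 (x axis, log2 signal) over the 12632 genes compared, with the number of genes on a log scale (y axis); red lines mark the 7 subunit genes and their heights carry no value. *Gabra4*, *Gabrb1*, and *Gabra2* lie in the left tail and *Gabrd* at -0.01.

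The same layer comparison in callosal neurons gave a different picture. Here 1 gene, *Gabrb1*, was at least 2-fold higher in L5, and 0 were lower, beside 4.08% and 4.52% of all genes. *Gabra3* and *Gabra5* were higher in L5 by 0.92 and 0.88, short of 2-fold. *Gabra4* was at -0.27, *Gabrb2* at -0.38, and *Gabra2* and *Gabrd* at 0.00. The median was 0.00 for the 7 genes and for all genes.

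Between projection types, 6 of the 7 genes were below 0 in L5 and above 0 in L2/3, for *Gabrb2* only in the probe set used, and 37.4% of all genes had this pair of signs. That share includes genes with the same deposited value in all 5 arrays, which the subtracted medians alone put at -0.03 and 0.03. In L5, 3 genes were at least 2-fold lower in association than in callosal neurons, *Gabra4* at -2.57, *Gabrb1* at -2.40, and *Gabra3* at -1.07, and 0 were higher. With quantile normalization *Gabra3* was at -0.97, and 2 genes were left. Over all genes 4.97% were lower and 3.49% higher in L5. *Gabra4* was at rank 55 and *Gabrb1* at rank 68 from the most negative difference. *Gabra5* at -0.96 stood just short of 2-fold, *Gabra2* was at -0.36, and *Gabrb2* was at -0.86 in the probe set used and at -0.17 and -0.49 in the others. In L2/3, 2 genes were at least 2-fold higher in association neurons, *Gabra2* by 2.10 and *Gabrb1* by 1.70, and 0 were lower, against 5.07% and 3.48% of all genes. The other 5 were between 0.03 and 0.38 in L2/3.

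The difference between these projection contrasts, L5 minus L2/3, was -4.10 for *Gabrb1*, -2.76 for *Gabra4*, -2.46 for *Gabra2*, -1.45 for *Gabra3*, -1.21 for *Gabra5*, -1.11 for *Gabrb2*, and -0.01 for *Gabrd*. In the other *Gabrb2* probe sets it was 0.41 and -0.30, so that its direction was not shared. It equals L5 minus L2/3 in association neurons minus the same in callosal neurons, and with 1 array for each of these 4 groups it was not tested. For *Gabra2* the association arrays alone made it, since the callosal arrays were tied. For *Gabra3* and *Gabra5* the callosal arrays gave the larger share.

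**Figure D3:**
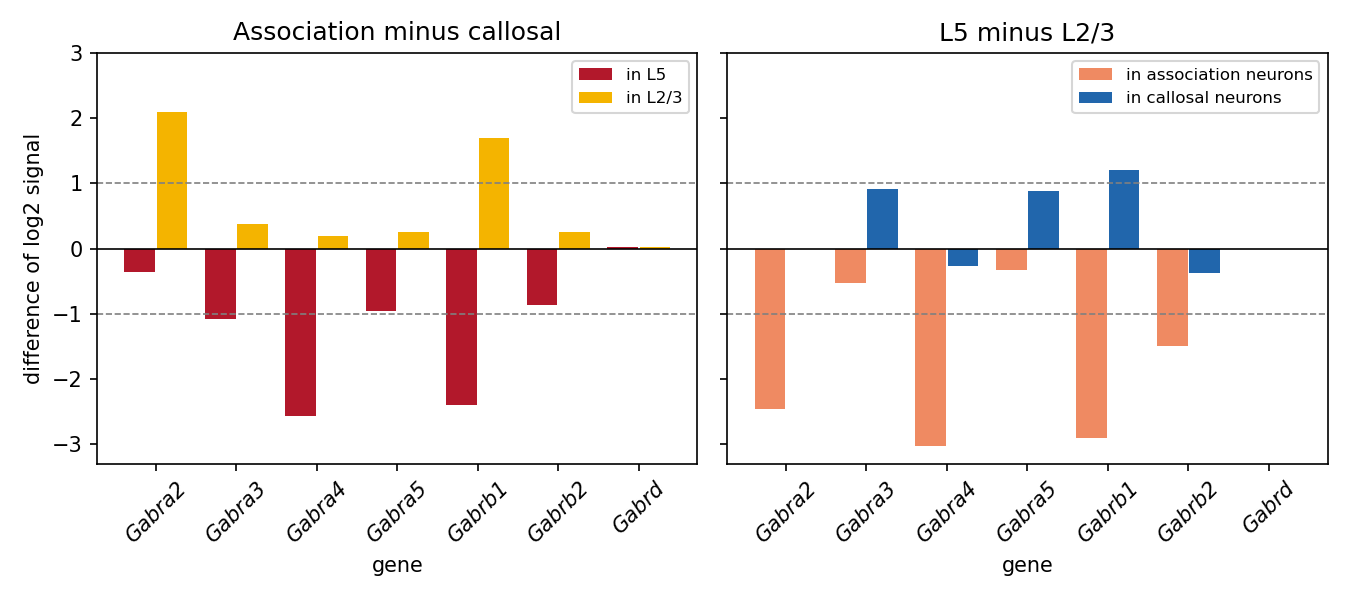
Differences of log2 signal (y axis) for the 7 subunit genes (x axis), at left association minus callosal in L5 and in L2/3, at right L5 minus L2/3 in association and in callosal neurons; each bar is the difference of 2 arrays and dashed lines mark 2-fold. At left, bars for L5 point down and bars for L2/3 point up for every gene except *Gabrd* (for *Gabrb2* in the probe set used), and at right *Gabra4*, *Gabrb1*, and *Gabra2* fall below -2 in association neurons only.

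For L6b, association neurons of this layer were set against the mean of the other 4 arrays. *Gabra5* was 2.53-fold higher, *Gabra4* was 3.56-fold lower, and *Gabrb1* was at -1.63, or at -1.19 with signals below the array median raised to it, so that 1 gene was higher and 2 were lower. Over all genes 2.44% were higher and 6.55% lower. The mean of the others hid a split for *Gabra4* and *Gabrb1*, since association L5 was as low as L6b, with L6b minus association L5 at 0.28 and -0.01. *Gabra2* at -0.87, *Gabrb2* at 0.36, *Gabra3* at -0.03, and *Gabrd* at -0.07 did not reach 2-fold. The median of the 7 was -0.07 and that of all genes -0.06.

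Against association L5 alone, 2 genes passed 2-fold upward in L6b, *Gabra5* by 1.68 and, in 1 of its 3 probe sets, *Gabrb2* by 1.26, and 0 were lower, while 3.50% of all genes were higher and 7.16% lower. Against association L2/3, *Gabra5* was higher in L6b by 1.35, and 3 genes were lower, *Gabrb1* by at least 4.99-fold (against the array median), *Gabra4* by 6.73-fold, and *Gabra2* by 5.82-fold. Over all genes 2.83% were higher and 10.6% lower in that comparison. *Gabrb1*, *Gabra4*, and *Gabra2* were at ranks 106, 126, and 168 from the most negative measured difference. In L6b these chromosome 5 genes were within 0.28 of their signal in association L5.

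**Figure D4:**
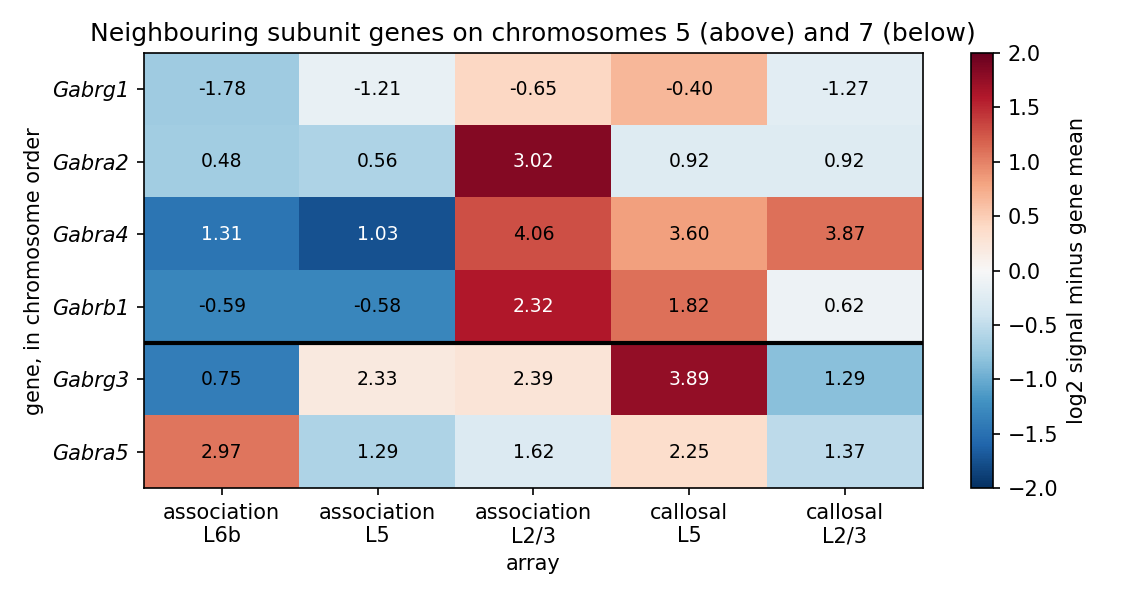
Signal of neighboring subunit genes (y axis, in the order of the genes on chromosome 5 above the line and on chromosome 7 below it) in the 5 arrays (x axis); numbers are log2 signal minus the array median and colors are the same minus the mean of the gene. *Gabra4* and *Gabrb1* share low deep association arrays, whereas *Gabra5* and *Gabrg3* have opposite extremes in association L6b.

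Neighbors in a cluster were alike to different degrees. Likeness was measured as the root mean square difference over the 5 arrays after the mean of each gene had been subtracted, so a small value means a similar pattern. It was 0.60 between *Gabra4* and *Gabrb1*, 0.74 between *Gabra2* and *Gabrb1*, and 1.02 between *Gabra2* and *Gabra4*. Some pairs from different chromosomes lay in the same range, such as *Gabra5* and *Gabrb2* at 0.67 and *Gabra2* and *Gabrb2* at 0.79. The farthest pair was *Gabra4* and *Gabra5* at 1.61. Small values also arise where both genes vary little, as for *Gabra3* and *Gabrd* at 0.37. *Gabrg1*, the gene at the other side of *Gabra2*, was below the array median in every array, between -1.78 and -0.40.

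Of the other GABA-A subunit genes, 9 with a probe set of 1 symbol were read, and 1 reached the array median in any array. The gene that reached it was *Gabrg3*, which encodes the γ3 subunit and neighbors *Gabra5*. Its signal was 0.75 in L6b, 2.33 in L5, and 2.39 in L2/3 of association neurons, and 3.89 in L5 and 1.29 in L2/3 of callosal neurons. Association L6b was the lowest array of *Gabrg3* and the highest of *Gabra5*, and L6b minus the mean of the others was -1.72 for *Gabrg3*. Association minus callosal was -1.56 in L5 and 1.10 in L2/3, a change of sign as in *Gabrb1*. *Gabra6*, *Gabre*, *Gabrp*, *Gabrq*, *Gabrr1*, *Gabrr2*, and *Gabrr3*, which have their main places outside the cortical pyramidal neuron, were between -1.58 and -0.10 in all arrays.

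Genes with the most similar pattern over the 5 arrays were looked up among 11719 genes for the 6 members that spanned 2-fold. For *Gabra2* they were *Rgl1* at 0.07, *Pdzrn3* at 0.12, and *Dpagt1* at 0.13, which like it were high in association L2/3 only. For *Gabra4* they were *Ddx50* at 0.34, *Ak4* at 0.35, and *Itgb8* at 0.35, and for *Gabrb1* they were *Ddx6* at 0.24, *Dpy30* at 0.33, and *Ak4* at 0.34, so the mitochondrial adenylate kinase gene *Ak4* was named for both. *Gabra4* and *Gabrb1* were closer to these genes than to each other. *Gabra5* was closest to *Arxes2* at 0.12, *Lor* at 0.16, and *Rab5b* at 0.20. *Gabra3* was closest to *Abhd10* and *Bet1* at 0.09 and *Gca* at 0.10, and *Gabrb2* to *Exosc9* at 0.12 and *Ehbp1* and *Gsdme* at 0.15. These likenesses rest on 5 arrays and are given as a description.

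The genes that work with GABA-A receptors were read next, from lists of other receptors, trafficking factors, scaffolds, chloride transporters, GABA enzymes, and kinases. All counts of this kind are for L6b against the mean of the others unless another comparison is named, and the background is the 2.44% higher and 6.55% lower given above. Of 5 GABA-B receptor genes compared, 0 were higher and 2 lower, with a median of -0.10. *Gabbr2*, a subunit of the metabotropic GABA-B receptor, was at 2.68 in L6b, 3.59 in L5, and 4.37 in L2/3 of association neurons, and 4.07 in L5 and 4.03 in L2/3 of callosal neurons. *Kctd16*, an auxiliary protein of that receptor, was at -1.10 in this comparison. Of 3 glycine receptor genes 0 were higher and 0 lower, and their median was -0.16.

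Assembly and trafficking genes numbered 21, of which 2 were higher in L6b and 2 lower, with a median of -0.01. *Lhfpl3*, a relative of the GABA-A receptor auxiliary gene *Lhfpl4*, was at 4.86 in association L6b against 0.15 to 0.86 elsewhere. *Nsf*, an ATPase of membrane fusion, was at 3.69 in association L6b against 4.69 to 4.86 elsewhere. *Arfgef2*, a trafficking factor that binds β subunits, was at -1.60 in the comparison of L6b with the mean of the others, and *Gabarapl2*, of the GABARAP family, was at 1.84. Different probe sets of the last 2 genes disagreed. The other *Gabarapl2* probe set was at -2.25, and the 5 of *Arfgef2* ran between -2.29 and -0.05.

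Of 12 genes of the inhibitory postsynaptic scaffold, 2 were higher in L6b and 0 lower, with a median of -0.06. *Insyn2a*, encoding a protein that binds gephyrin, was at 6.41 in L6b, 1.21 in L5, and 1.23 in L2/3 of association neurons, and 0.84 in L5 and 1.84 in L2/3 of callosal neurons. Association L6b was 4.57 above the next array, whereas the largest such gap of a subunit gene was the 2.10 of *Gabra2* in association L2/3. *Mdga2*, encoding an adhesion protein that limits the binding of neuroligins to neurexins, was at 3.96 in L6b, 0.03 in L5, and 4.09 in L2/3 of association neurons, and 2.98 in L5 and 3.43 in L2/3 of callosal neurons, so that association L5 stood apart. The second *Mdga2* probe set ranged from 1.86 to 2.62. *Gphn*, which encodes gephyrin itself and was chosen after its values were seen, was at 1.25 in L6b, 1.52 in L5, and 2.87 in L2/3 of association neurons, and 1.99 in L5 and 2.29 in L2/3 of callosal neurons. As for *Gabra4*, the 2 deep association arrays were its lowest, but association L5 was only 0.47 below callosal L5. How many of all genes share this order was not counted.

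Among 14 chloride transport genes, 0 were higher in L6b and 1 was lower, with a median of -0.16. A second probe set of *Wnk1*, a kinase upstream of SPAK, was at 2.97 in this comparison, whereas the one used was at 0.10. *Wnk1* was named after its values were seen. The one lower was *Stk39*, encoding the kinase SPAK that acts on cation chloride cotransporters, at 1.94 in association L6b against 4.23 to 5.27 elsewhere. *Slc12a5*, which encodes the chloride exporter KCC2 and was chosen after its values were seen, had a signal of 1.43 in L6b, 0.81 in L5, and 1.72 in L2/3 of association neurons, and 1.49 in both callosal arrays. Its L6b signal lay within the range of the other arrays. Of 6 genes of GABA synthesis, transport, and breakdown, 1 was lower in L6b and 0 were higher, with a median of -0.54. It was *Gad1*, encoding a GABA-making enzyme, at 0.45 in L6b, 2.00 in L5, and 1.46 in L2/3 of association neurons, and 1.18 in L5 and 1.30 in L2/3 of callosal neurons.

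Kinases and phosphatases that act on GABA-A receptors numbered 14, of which 0 were higher in L6b and 3 lower, with a median of -0.10. *Camk2a*, a kinase of β subunits that is also in the list of glutamatergic markers, was at 2.41 in L6b, 4.41 in L5, and 5.75 in L2/3 of association neurons, and 4.91 in L5 and 5.41 in L2/3 of callosal neurons. *Akap5*, an anchoring protein of kinases at the postsynapse, was at 0.52 in association L6b against 2.37 to 4.11 elsewhere. *Prkca*, encoding protein kinase C α, was at -0.40 in L6b, 0.21 in L5, and 1.79 in L2/3 of association neurons, and 1.63 in L5 and 2.73 in L2/3 of callosal neurons. It was lowest in the 2 deep association arrays, which were also the lowest for *Gabra2*, *Gabra4*, and *Gabrb1*, an order not counted over all genes. Between L5 and L2/3 of association neurons, 4 of the 14 were lower and 0 higher, beside 7.36% and 3.48% of all genes.

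Markers of other cells moved with some of these arrays. Of 13 myelin genes, 7 were higher and 0 lower in L6b. In association L5 against association L2/3, 6 of them were higher and 0 lower, beside 3.48% and 7.36% of all genes. The mean signal of the myelin genes was 1.97 in L6b, 1.60 in L5, and 0.23 in L2/3 of association neurons, and 1.21 in L5 and 0.31 in L2/3 of callosal neurons. It was high in the 2 arrays where *Gabra4* and *Gabrb1* were low, and it was also high in callosal L5, where these subunit genes were at 3.60 and 1.82. Of 16 interneuron genes, 5 were lower in L6b and 0 higher, and 2 were lower and 0 higher in association L5 than in association L2/3. Their mean signal was 0.87 in L6b, 1.59 in L5, and 1.93 in L2/3 of association neurons, and 1.67 in L5 and 1.59 in L2/3 of callosal neurons. Single interneuron genes went different ways. In L5, 1 of the 16 was higher in association than in callosal neurons and 1 lower, beside 3.49% and 4.97% of all genes. These were *Npy* and *Vip*, a peptide of another interneuron class, both chosen after their values were seen. *Npy* was at 2.40 in L6b, 4.35 in L5, and 4.07 in L2/3 of association neurons, and 1.65 in L5 and 4.01 in L2/3 of callosal neurons. *Vip* was at 0.73 in L6b, -0.13 in L5, and 1.74 in L2/3 of association neurons, and 2.14 in L5 and 2.03 in L2/3 of callosal neurons. Its lowest arrays were the 2 deep association arrays, as for *Gabra4*, and this order was not counted over all genes. The part of interneuron and myelin RNA in the subunit signals was not tested.

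Of 11 markers of glutamatergic neurons, 4 were lower in L6b and 0 higher. In L5 none of them was 2-fold apart between association and callosal neurons, where 4.97% of all genes were lower and 3.49% higher. Microglia, precursor, and endothelial markers had no gene 2-fold apart in L6b against the mean of the others, over 9, 8, and 6 genes, and astrocytes had 1 of 11, *Aldoc*, at -2.46. Astrocyte signals differed over the 11 genes, some lying around the array median. *Slc1a2*, a glutamate transporter gene chosen after its values were seen, was at 4.20 to 4.57. Of the layer lists, 7 of 10 L6b and subplate genes were higher in L6b and 0 lower, with a median of 2.32, and 0 of 13 L2/3 genes were higher and 6 lower, with a median of -0.94. Of 9 L5 genes 1 was higher and 2 were lower in L6b, and in association L5 against association L2/3 4 were higher and 1 lower. The shares of all genes in the latter comparison were 3.48% higher and 7.36% lower. Of 11 housekeeping genes 0 were higher and 1, *B2m*, was lower in L6b, with a median of -0.07.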

How the data were processed

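The deposited values are log2 signals, 1 for each probe set and array, which the authors made with Affymetrix Expression Console. The authors' methods name log transformation, global normalization, and centering of the signals, and the version, the probe summary, and which of these steps the deposited values hold were not given in the sources used here. That the scale is log2 was read from the values, which run from 1.11 to 14.20, and the values are not centered per gene. For amplified RNA of about 1000 cells the number of arrays limits the precision.

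An annotation of the platform gave 1 symbol for 21789 of 35556 probe sets, several for 1621, and none for 12146, and only the first were used. The median of each array, 5.71 to 5.80, was subtracted. The probe set with the highest mean stood for a gene, and only genes at or above the median of some array entered the comparisons, with Python 3.11.15, pandas 2.3.3, and NumPy 2.4.6. Arrays were compared as differences, with no test, and counted at 2-fold. Computation of the differences was tested on simulated data. The subunit genes and the 20 gene lists (226 of 248 genes measured) were chosen with earlier results of these data known. Named from the lists were genes at least 2-fold apart in L6b from the mean of the others, at most 4 by size, and the 3 genes most like each varying subunit gene, without predicted genes, receptors of smell, and small RNAs. For several cell type and layer lists, only some or none of the genes passing 2-fold in L6b were named. Genes chosen after their values were seen are marked as such. The alternatives were other scalings, filters, probe set rules, fold limits, and references for L6b. Some other subunit genes are not reported here.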

Additional observations from a re-analysis of the deposited data

Results flagged for a closer look

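*Gabrb1* was picked out because its difference under the same contrast had opposite signs in the 2 layers and in the 2 projection types. Association minus callosal was -2.40 in L5 and 1.70 in L2/3, and L5 minus L2/3 was -2.90 in association and 1.20 in callosal neurons. Each value is the difference of 2 arrays, the same 4 arrays give all of them, and the difference between the contrasts was not tested. Of the 12632 genes compared, 75 genes (0.594%) were at least 2-fold lower in association neurons in L5 and at least 2-fold higher in L2/3, and 72 genes (0.57%) were at least 2-fold lower in L5 among association neurons and at least 2-fold higher among callosal neurons. *Gabrb1* was in both sets, and *Gabrg3*, with -1.56 in L5 and 1.10 in L2/3, was in the first.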

How the results depend on the processing

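Other scalings, filters, probe set rules, fold limits, and references for L6b were tried. Of 150 counts of subunit genes, 139 stayed within 1.5 times the value given and 11 moved. Of 427 differences of single genes, 422 stayed within 1.5-fold and 5 moved. Many of these differences could not move, so the 422 do not measure robustness. Filters do not alter a difference, and probe set rules can alter only *Gabrb2*, which has several probe sets. Scalings other than quantile normalization shift all genes of a contrast alike, by at most 0.16, which is less than 1.5-fold. No difference of at least 2-fold changed sign, but 23 smaller ones did, at most 0.25 in size, in *Gabra3*, *Gabrb1*, *Gabrb2*, and *Gabrd*. With the mean of all probe sets, 1 gene was higher in L6b than in association L5 in place of 2. With the same rule *Gabrb2* was at -0.96 in association L5 minus L2/3 in place of -1.49, and 3 genes were lower in place of 4. With quantile normalization *Gabra3* was at -0.97 in association minus callosal L5, and 2 genes were lower in place of 3. *Gabra2* passed 2-fold in L6b, at -1.02 to -1.14, with association L5, callosal L5, or callosal L2/3 left out. At 1.5-fold, 5 genes were lower in association than in callosal L5 in place of 3, and 3 were higher in callosal L5 than L2/3 in place of 1. At 4-fold, 0 were higher and 0 lower in L6b than in the mean of the others, 0 were higher in L6b than in association L5 or L2/3, 1 was higher in association than in callosal L2/3 in place of 2, and 0 were higher in callosal L5 than L2/3. Measured from the edge of the range of the other 4 arrays, 0 were higher and 0 lower in L6b, with *Gabra5* at 0.72, *Gabra2* at -0.08, and *Gabrb1* at -0.01, while *Gabra4* lay between other arrays and was set to 0.00. Without association L5 the L6b difference of *Gabra4* was -2.53 in place of -1.83. Subtracting the 75th percentile moved the median of all genes by up to 0.16, in L6b minus association L2/3. No paired analysis was possible because each group is 1 array. With 1 array per group, amplification, dissection, and animal cannot be told apart from group.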
